A study of Mus musculus with 18 samples.

Results

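The matrix metalloproteases (Mmp genes), the membrane proteases of the Adam family, the secreted Adamts proteases and their tissue inhibitors (Timp genes) were measured in 3 sorted populations of mouse mammary epithelial cells. Members were all probe sets whose gene symbol in the array annotation is one of these family names followed by a number and at most one further letter. The rule uses names only and no measured value. It gave 65 genes, among 18193 that are named alone on a probe set of the chip pair. They were read by 116 of the pair's 45037 probe sets, with 83 on chip A and 33 on chip B. By family there were 29 Mmp, 46 Adam, 28 Adamts and 13 Timp probe sets. There were 5 further probe sets that carry such a name together with that of another gene, and these were not counted as members.

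CFC was a fraction enriched for colony forming cells, progenitors that grow into colonies in culture, with 1 such cell among 10 sorted cells. MaSC was the stem-cell-enriched fraction, holding 1 mammary stem cell among 50 to 100 cells, so most of its cells are not stem cells. MYO was a fraction of basal, or myoepithelial, cells of about 94% purity that contains few stem cells. CFC and MaSC were purified from freshly dissociated tissue by removing unwanted cells magnetically and then flow sorting. For MYO, immunomagnetic enrichment came before the sort. Each population had 3 RNA samples, taken from 3000 to 4000 cells for CFC, 3000 to 24000 for MYO and 2000 to 4000 for MaSC, and each RNA sample went onto both chips of the Affymetrix MOE430 pair. The labels used here give no genotype, strain or age for any of the 3 groups.

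These enzymes are zinc proteases made as inactive precursors. Mmp enzymes cut collagens, laminins and other matrix proteins, Adam proteases at the cell surface release growth factors and receptor fragments, and Adamts proteases cut proteoglycans and trim procollagens. Timp proteins bind the active site and block it. In the mammary gland these families are known for the matrix remodelling that accompanies duct growth, branching and involution.

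The sorted populations carried the markers their labels call for. The summed chip A signal of 6 basal markers was 9438 to 22171 in CFC, 399928 to 604425 in MYO and 334385 to 640196 in MaSC. Most of this sum was Acta2, at 333785 to 473904 in MYO and 251677 to 529430 in MaSC. Of the 6, 5 were called higher than CFC in each of MYO and MaSC, while Oxtr overlapped between the populations. The summed signal of 7 luminal markers was 345467 to 575860 in CFC, 39706 to 122077 in MYO and 112069 to 147553 in MaSC, and 6 or 7 of the 7 had a signal of 300 or more on every MYO and MaSC array. The summed signals of endothelial, pericyte and leukocyte markers overlapped between the populations, and none of those tested (6 of 8, 6 of 6 and 10 of 10) was called against CFC. Values are the deposited signals on a linear scale, whose mean between the 2nd and 98th percentiles was 1500 on every array. A probe set was tested where it had a signal of 300 or more on 3 or more of its chip's 9 arrays, a signal reached by 70.0% to 75.6% of the probe sets on a chip A array and 76.8% to 80.3% on a chip B array. In arrays of sorted populations, fewer cells of a type and less RNA per cell cannot be told apart.

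Of the 116 member probe sets, 105 were tested. A probe set is called where limma's Benjamini-Hochberg adjusted p, taken over all tested probe sets of its chip, is under 0.05. In MYO against CFC, 4 of the 105 tested members were called higher, against 0.623% of all tested probe sets, and 0 were called lower, against 0.272%. In MaSC against CFC, 2 were called higher, against 0.438% of all tested probe sets, and 0 lower, against 0.183%. The called probe sets belong to 3 genes, Adamts1, Mmp2 and Timp3, and all lie on chip A, where 74 of the tested members are and where 1.17% of the tested probe sets were called higher in MYO and 0.818% in MaSC. Both contrasts use the same CFC arrays, so a high or low CFC value moves both together.

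At an unadjusted limma p under 0.05 the members lower than CFC were 3 in each contrast, against 3.15% of all tested probe sets in MYO and 3.27% in MaSC, and those higher were 10 in MYO and 8 in MaSC, against 3.46% and 3.49%. The 3 arrays of a population lay above all 3 CFC arrays for 12 members in MYO and 10 in MaSC, where all tested probe sets gave 5.77% and 5.58%. They lay below all CFC arrays for 7 members in each contrast, where all tested probe sets gave 6.22% in MYO and 6.29% in MaSC. The F test over the 3 populations called 4 members, against 0.83% of all tested probe sets.

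Adamts1 was higher in both basal-type populations than in CFC. ADAMTS1 is a secreted protease that cuts the proteoglycans versican and aggrecan and is known to be induced by hormones in the mouse ovary. Its probe set 1450716_at had signals of 2098, 1061 and 1967 in CFC, 15481, 28209 and 6100 in MYO and 12277, 9813 and 6172 in MaSC. The lowest MYO or MaSC sample was above the highest CFC sample, and MYO and MaSC overlapped. The means were 1708 ± 565 in CFC, 16597 ± 11097 in MYO and 9421 ± 3071 in MaSC (SD, n = 3 each). On the log2(signal + 150) scale, on which all log2 fold changes here are given and which understates the change of dim probe sets, the difference was 2.97 ± 0.46 (SE, adjusted p = 0.000144) for MYO and 2.36 ± 0.46 (adjusted p = 0.00379) for MaSC. On that scale these were 7.84-fold and 5.14-fold.

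The Adamts1 call in MYO held when any 1 of the 9 RNA samples was left out, with adjusted p up to 0.00542, and the MaSC call held likewise, with adjusted p up to 0.0454. The MaSC call was lost where the variance was fitted without a trend on the mean signal (adjusted p = 0.195). Arrays of chip A were scanned on 2 days, and all 3 CFC arrays on the first. Within the first day, which leaves 2 MYO and 2 MaSC samples, Adamts1 differed from CFC by 2.46 (adjusted p = 0.00424) in MYO and 2.63 (adjusted p = 0.00316) in MaSC. The arrays also differed in the fluidics station that washed and stained them: on chip A all 3 CFC arrays, MYO1, MYO2 and MaSC3 were on station 2 and the other 3 on station 1, which had no CFC array. With the station as a block Adamts1 differed by 3.13 (adjusted p = 0.000478) in MYO and 2.67 (adjusted p = 0.0252) in MaSC. Within station 2 it differed by 3.55 (adjusted p = 5.21e-06) in MYO and by 1.82 (adjusted p = 0.161) in MaSC, whose lone sample is assumed to vary like the other groups.

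The 250 bases before the start of Adamts1 on chr16:85803114-85803363, minus strand, are shown because this gene had the lowest adjusted p of the members, and those of Timp3 on chr10:86300162-86300411, plus strand, because it was the called inhibitor. The sequences and build, GRCm38.p6, are RefSeq's. Capitals mark GC boxes (GGGCGG on either strand, CCGCCC when reversed) and the TATA motif TATAAA on either strand; these motifs do not overlap in the stretches shown.
Adamts1: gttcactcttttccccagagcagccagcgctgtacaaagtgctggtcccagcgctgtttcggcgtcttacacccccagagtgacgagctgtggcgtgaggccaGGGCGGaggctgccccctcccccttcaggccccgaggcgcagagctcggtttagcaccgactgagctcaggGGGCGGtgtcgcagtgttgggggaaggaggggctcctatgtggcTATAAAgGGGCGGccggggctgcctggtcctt
Timp3: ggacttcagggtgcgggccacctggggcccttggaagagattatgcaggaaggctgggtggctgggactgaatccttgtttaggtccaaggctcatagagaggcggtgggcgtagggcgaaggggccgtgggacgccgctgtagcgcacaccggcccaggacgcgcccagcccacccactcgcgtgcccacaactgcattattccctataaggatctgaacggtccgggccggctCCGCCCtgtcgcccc
The Adamts1 stretch held 3 GC boxes, starting 147, 76 and 25 bases before the start site, and TATAAA starting 32 bases before it. The Timp3 stretch held 1 reversed GC box, starting 15 bases before the start site, and no TATAAA. Over the table's 32851 promoters of this length, 32.7% held a GC box and 12.4% held TATAAA. The CArG box, the motif known for smooth muscle genes, was in neither stretch and in 1.47% of all promoters.

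**Figure D1:**
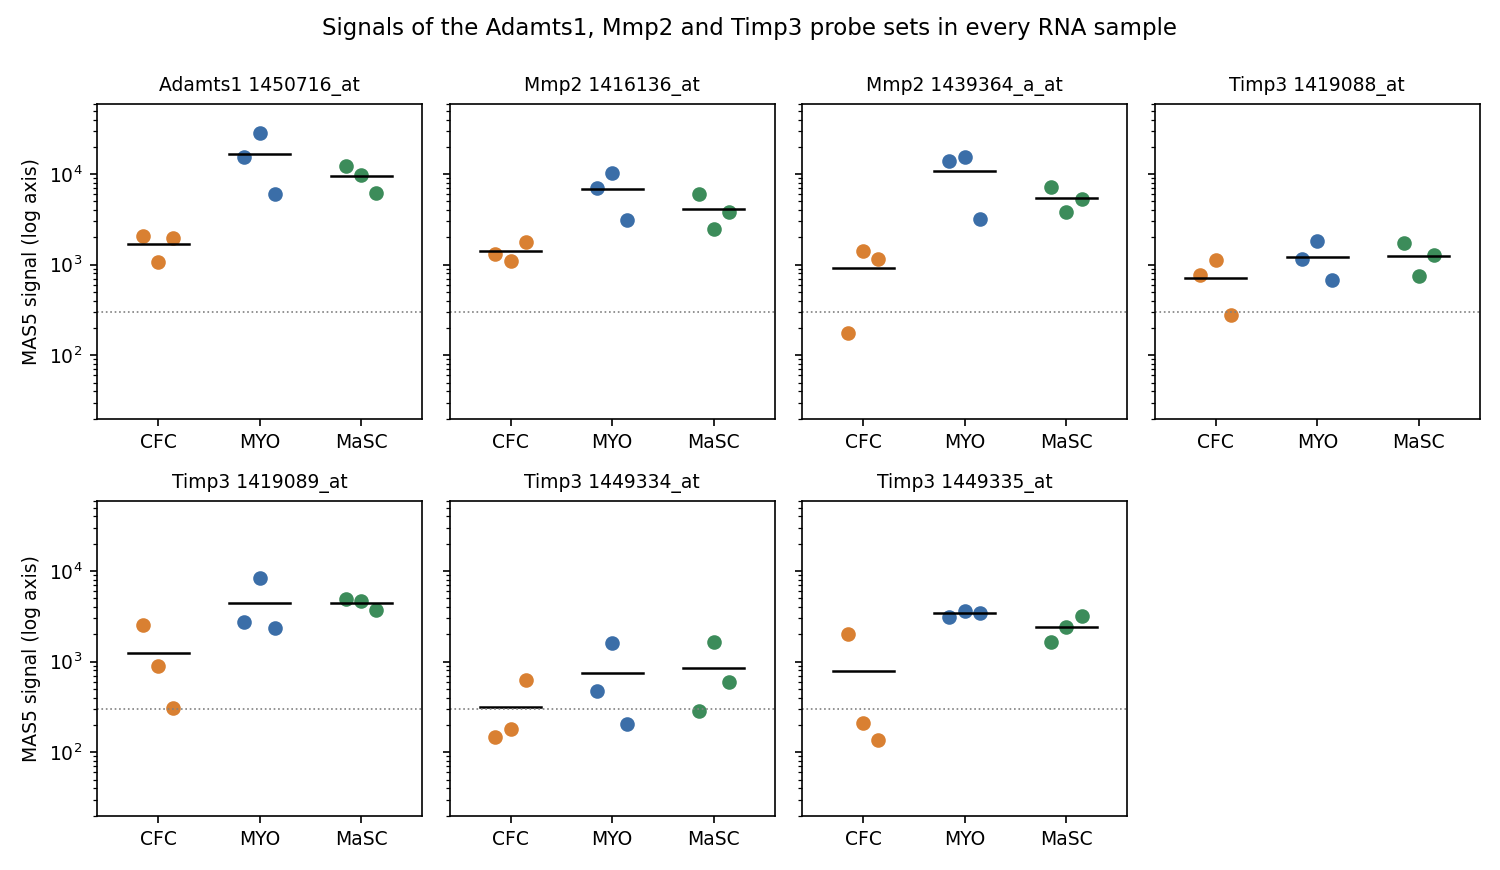
MAS5 signal on a log axis for the Adamts1, Mmp2 and Timp3 probe sets, with 1 point per RNA sample, a bar at the mean of the 3 samples of a population and a dotted line at a signal of 300. All 6 MYO and MaSC points lie above the CFC points for Adamts1 and for both Mmp2 probe sets, while CFC points of Timp3 spread from 138 to 2005 on probe set 1449335_at.

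Mmp2 was also higher than in CFC, in MYO on both of its probe sets and in MaSC on 1 of them. MMP2, or gelatinase A, degrades gelatin and the type IV collagen of basement membranes, and in mammary tissue it is known best from stromal fibroblasts. Probe set 1439364_a_at had signals of 176, 1422 and 1158 in CFC, 13940, 15283 and 3220 in MYO and 7231, 3836 and 5265 in MaSC. Every MYO and MaSC sample was above every CFC sample, with MYO3 the lowest of the 6. The means were 919 ± 657 in CFC, 10815 ± 6611 in MYO and 5444 ± 1705 in MaSC (SD, n = 3 each). The log2 difference from CFC was 3.37 ± 0.56 (SE, adjusted p = 0.000377) in MYO and 2.63 ± 0.56 (adjusted p = 0.00965) in MaSC. The call in MaSC was lost without CFC1, with a difference of 1.92 and an adjusted p of 0.101. Without the variance trend neither call of this probe set was kept (adjusted p = 0.0594 in MYO and 0.221 in MaSC). Within fluidics station 2 the differences were 4.08 (adjusted p = 3.21e-05) in MYO and 2.63 (adjusted p = 0.0898) in MaSC, and with the station as a block both calls were kept (3.72, adjusted p = 0.000436, and 3.34, adjusted p = 0.0153).

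The other Mmp2 probe set, 1416136_at, had the same order of populations. Its signals were 1329, 1099 and 1782 in CFC, 7100, 10171 and 3119 in MYO and 6007, 2470 and 3854 in MaSC. Again no MYO or MaSC sample reached down to a CFC sample. The log2 difference was 2.03 ± 0.48 (SE, adjusted p = 0.0147) in MYO and 1.39 ± 0.48 (adjusted p = 0.246) in MaSC, so only the MYO contrast was called. The MYO call was lost in the first scan day alone (1.67, adjusted p = 0.250), with the scan day as a block (1.85, adjusted p = 0.0682) and without the variance trend (adjusted p = 0.191). It was also lost without CFC1, CFC2, MYO1 or MYO2, where the difference was 1.67 to 2.01 and the adjusted p 0.0514 to 0.213.

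Several fibroblast markers were high in the samples with the highest Mmp2 and Adamts1 signals. The summed signal of 10 such markers was 13578 to 23324 in CFC, 36031, 68852 and 19488 in MYO and 35692, 14518 and 20853 in MaSC. MYO2 was highest in this sum, in Adamts1 and in both Mmp2 probe sets, with MYO1 next in each, and MaSC1 had the highest of each within MaSC. The sum rests on a few bright markers: in MYO2, Col3a1, Dcn and Col1a2 made up 75.6% of it.

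Taken one by one, the markers lay above every CFC sample for 7 of 10 in MYO1, 8 in MYO2 and 5 in MYO3, and for 8 in MaSC1, 3 in MaSC2 and 3 in MaSC3. Col1a2, a collagen chain, and Mfap5, a microfibril protein, did so in all 6 MYO and MaSC samples. Below every CFC sample were 1, 1 and 3 markers in MYO and 1, 3 and 0 in MaSC. MYO3, MaSC2 and MaSC3 thus had sums within the CFC range while some of their markers were above it. In those samples Mmp2 was 3220, 3836 and 5265 on 1439364_a_at and 3119, 2470 and 3854 on 1416136_at, all above every CFC sample. None of the 10 markers was below a signal of 300 on all 9 arrays, and 8 to 10 of them reached 300 on each array. Of the 10, 0 were called in MaSC against CFC, and Col3a1, a fibrillar collagen, was called higher in MYO (3.00, adjusted p = 0.0178). Their median log2 difference from CFC was 0.85 in MYO and 0.82 in MaSC. It was above 0 for 9 of the 10 in MYO, with Pdgfra at -0.52 and Dcn, a bright marker, at 0.0005. In MaSC it was above 0 for 8, with Dcn at -0.47 and Lum at -0.16. The part of fibroblast RNA in the Mmp2, Adamts1 and Timp3 differences was not tested.

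**Figure D2:**
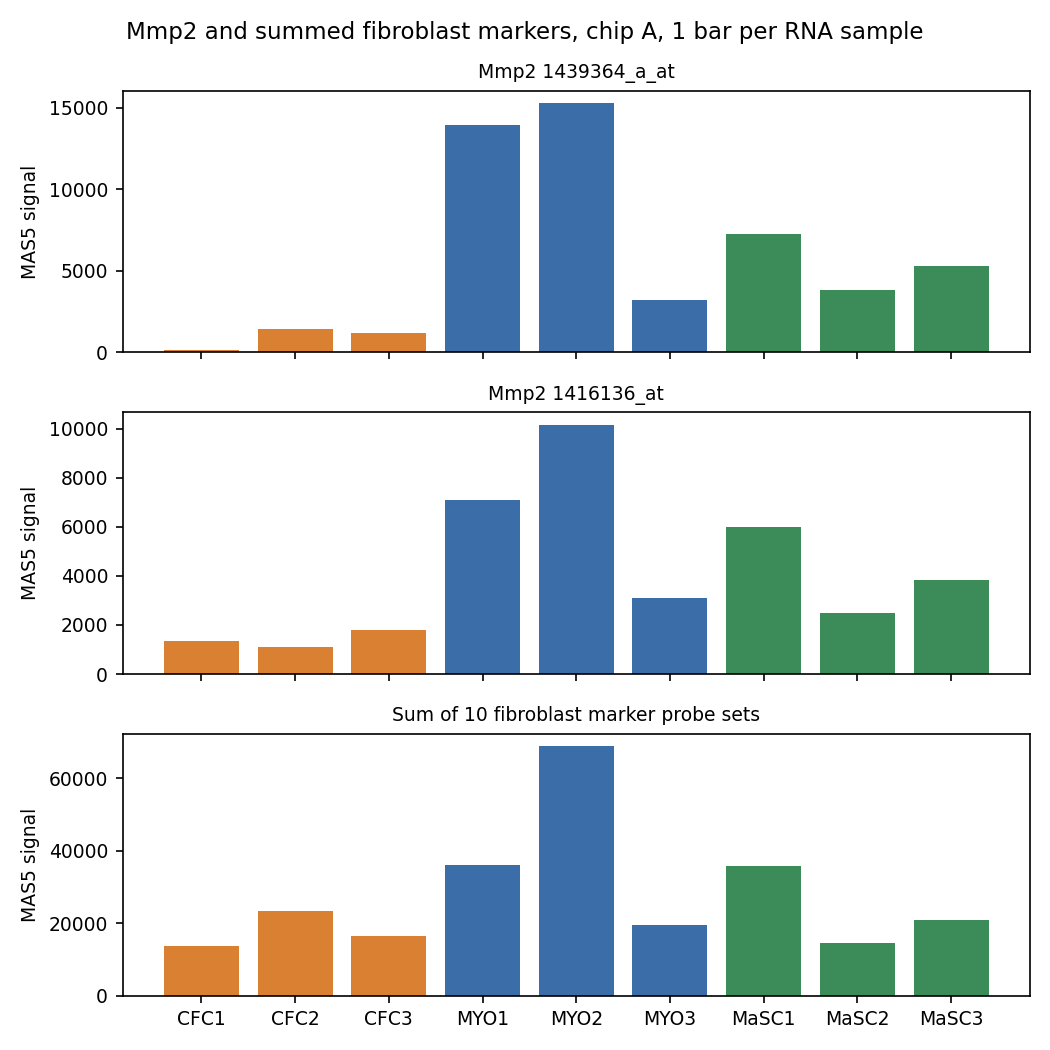
Signals of both Mmp2 probe sets and the summed signal of 10 fibroblast markers on chip A, on linear axes, with 1 bar per RNA sample. Mmp2 and the marker sum are both highest in MYO2, and Mmp2 stays above the CFC bars in MYO3 and MaSC2, where the marker sum is 19488 and 14518 and 5 and 3 of the 10 markers were above every CFC sample.

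The other gelatinase and the remaining Mmp genes gave no call. Mmp9, gelatinase B, had signals of 144, 540 and 1812 in CFC, 272, 448 and 821 in MYO and 381, 1231 and 809 in MaSC on its tested probe set, and the populations overlapped. Mmp3, stromelysin 1, known to drive side branching in the mouse mammary gland, had signals of 169, 809 and 214 in CFC, 771, 2413 and 2633 in MYO and 1183, 1636 and 1884 in MaSC. All MaSC samples were above all CFC samples, and MYO1 lay just below CFC2. Its log2 differences of 1.96 ± 0.68 in MYO (adjusted p = 0.226) and 1.82 ± 0.68 in MaSC (adjusted p = 0.347) did not pass the test. Matrilysin, Mmp7, ran from 375 to 3617 over the 9 samples and stromelysin 3, Mmp11, from 81 to 2407, and in neither did the populations separate.

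Mmp14, the membrane-type enzyme known to activate MMP2 at the cell surface together with TIMP2, gave no call on any of its 3 probe sets. On the brightest, 1448383_at, signals were 1666, 3469 and 1913 in CFC, 2628, 4084 and 4213 in MYO and 2986, 3809 and 4884 in MaSC. Only CFC2 was as high as the MYO and MaSC samples. The log2 difference was 0.64 ± 0.45 in MYO (adjusted p = 0.834) and 0.73 ± 0.45 in MaSC (adjusted p = 0.718), with 95% intervals from -0.27 to 1.55 and from -0.18 to 1.65. Over the 3 Mmp14 probe sets the range was -0.04 to 0.64 in MYO and -0.17 to 0.73 in MaSC. The 11 membrane-type probe sets had medians of 0.22 in MYO and 0.17 in MaSC, against -0.01 and -0.02 over all tested probe sets. The collagenases Mmp1a, Mmp8 and Mmp13, tested on 1 probe set each, ran from -0.39 to 0.13 in MYO and from -1.77 to 1.39 in MaSC.

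**Figure D3:**
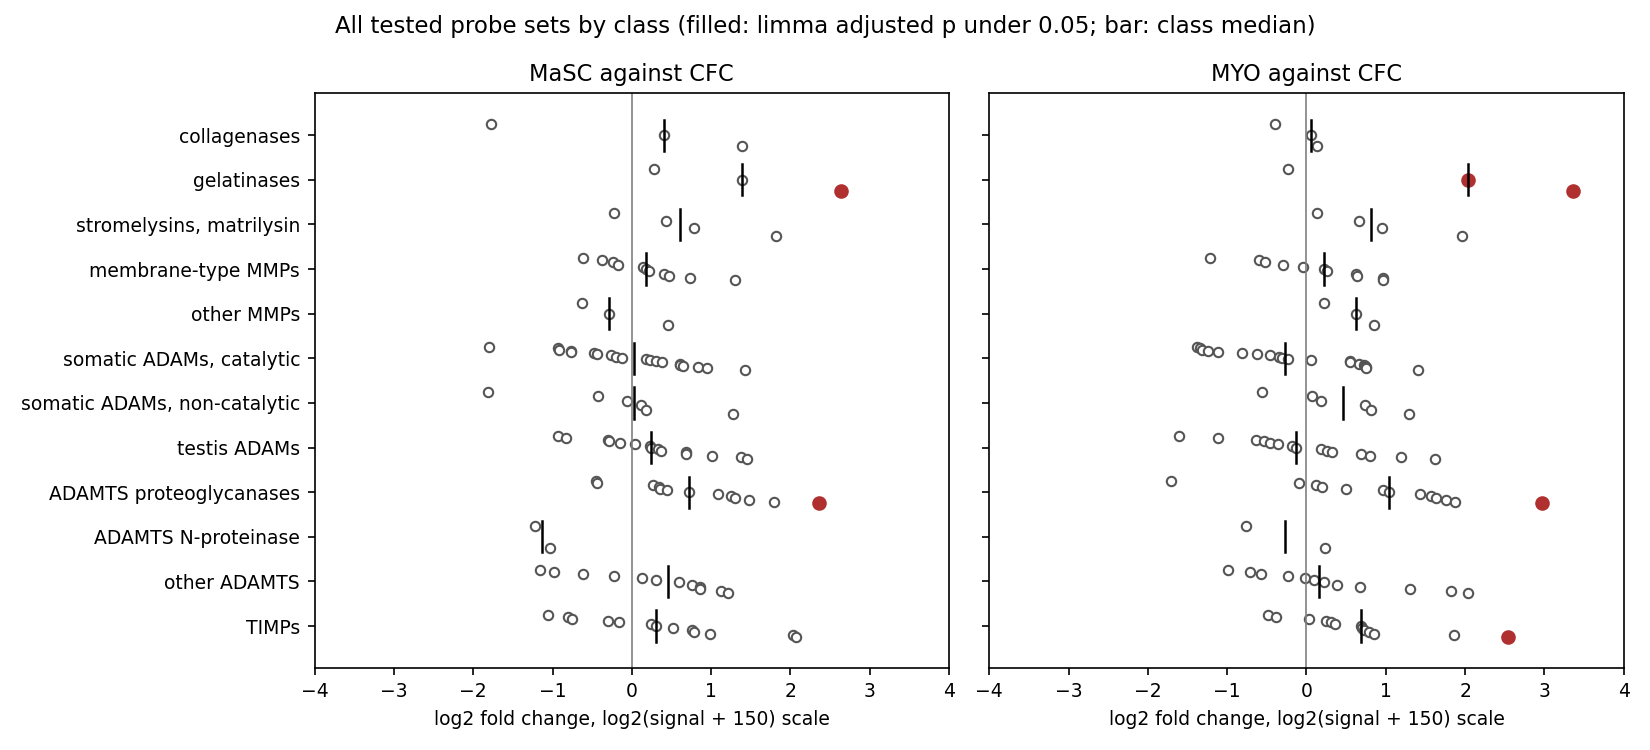
Log2 fold changes of the 105 tested members against CFC, grouped by class, with 1 point per probe set, filled points for adjusted p under 0.05 and a bar at the class median. The filled points are gelatinase, ADAMTS proteoglycanase and inhibitor probe sets. The gelatinase and proteoglycanase medians lie to the right of 0 in both panels, as do those of several other classes, among them stromelysins and inhibitors. The gelatinase median is of 3 probe sets, of which 2 are of Mmp2.

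Besides Adamts1, the proteoglycanases of the Adamts family gave no call. The 13 tested probe sets of the 7 proteoglycanase genes, Adamts1 included, had a median log2 difference of 1.04 in MYO and 0.72 in MaSC. Over all tested probe sets the medians were -0.01 and -0.02. Of the 13, 11 were above 0 in each contrast, where all 41553 tested probe sets gave 20532 in MYO and 20377 in MaSC. Adamts4, Adamts5 and Adamts9 account for 2, 4 and 3 of the 13, so these are not 13 separate genes. Adamts4 and Adamts5 are the main aggrecan-degrading enzymes of cartilage. Adamts5 was read by 4 probe sets whose differences were not of the same sign. On 1456404_at (chip B) the signals were 1252, 972 and 906 in CFC, 1554, 3469 and 2206 in MYO and 3856, 1615 and 3401 in MaSC. All 6 samples of MYO and MaSC were above CFC there, with differences of 1.04 ± 0.64 (adjusted p = 0.963) and 1.31 ± 0.64 (adjusted p = 0.943). On 1450658_at (chip A) the MYO samples, at 867, 602 and 34, were instead below the CFC samples, at 1406, 1903 and 1401, with a log2 difference of -1.71 (adjusted p = 0.455). The other 2 gave 1.44 and 0.50 in MYO and 1.09 and 0.34 in MaSC.

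Adamts4 had signals of 97, 230 and 1331 in CFC, 1252, 2094 and 1580 in MYO and 3478, 75 and 280 in MaSC on 1452595_at. MYO was nearly separate from CFC, and MaSC spanned the whole range. The difference in MYO was 1.76 ± 0.87 (adjusted p = 0.643). Adamts9, another versican-cleaving enzyme picked out after its values were seen, was above CFC in all MYO and MaSC samples on 1437785_at (3743, 843 and 4228 in CFC; 8094, 8819 and 5806 in MYO; 5901, 6851 and 8437 in MaSC), with differences of 1.57 (adjusted p = 0.694) and 1.48 (adjusted p = 0.877). Its other probe sets gave 1.87 in MYO (adjusted p = 0.932) and 0.36 in MaSC on 1430352_at and 0.12 and -0.45 on 1431399_at. These chip B values stand against a background in which 0.108% of the tested probe sets of that chip were called higher in MYO, a lower share than on chip A.

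**Figure D4:**
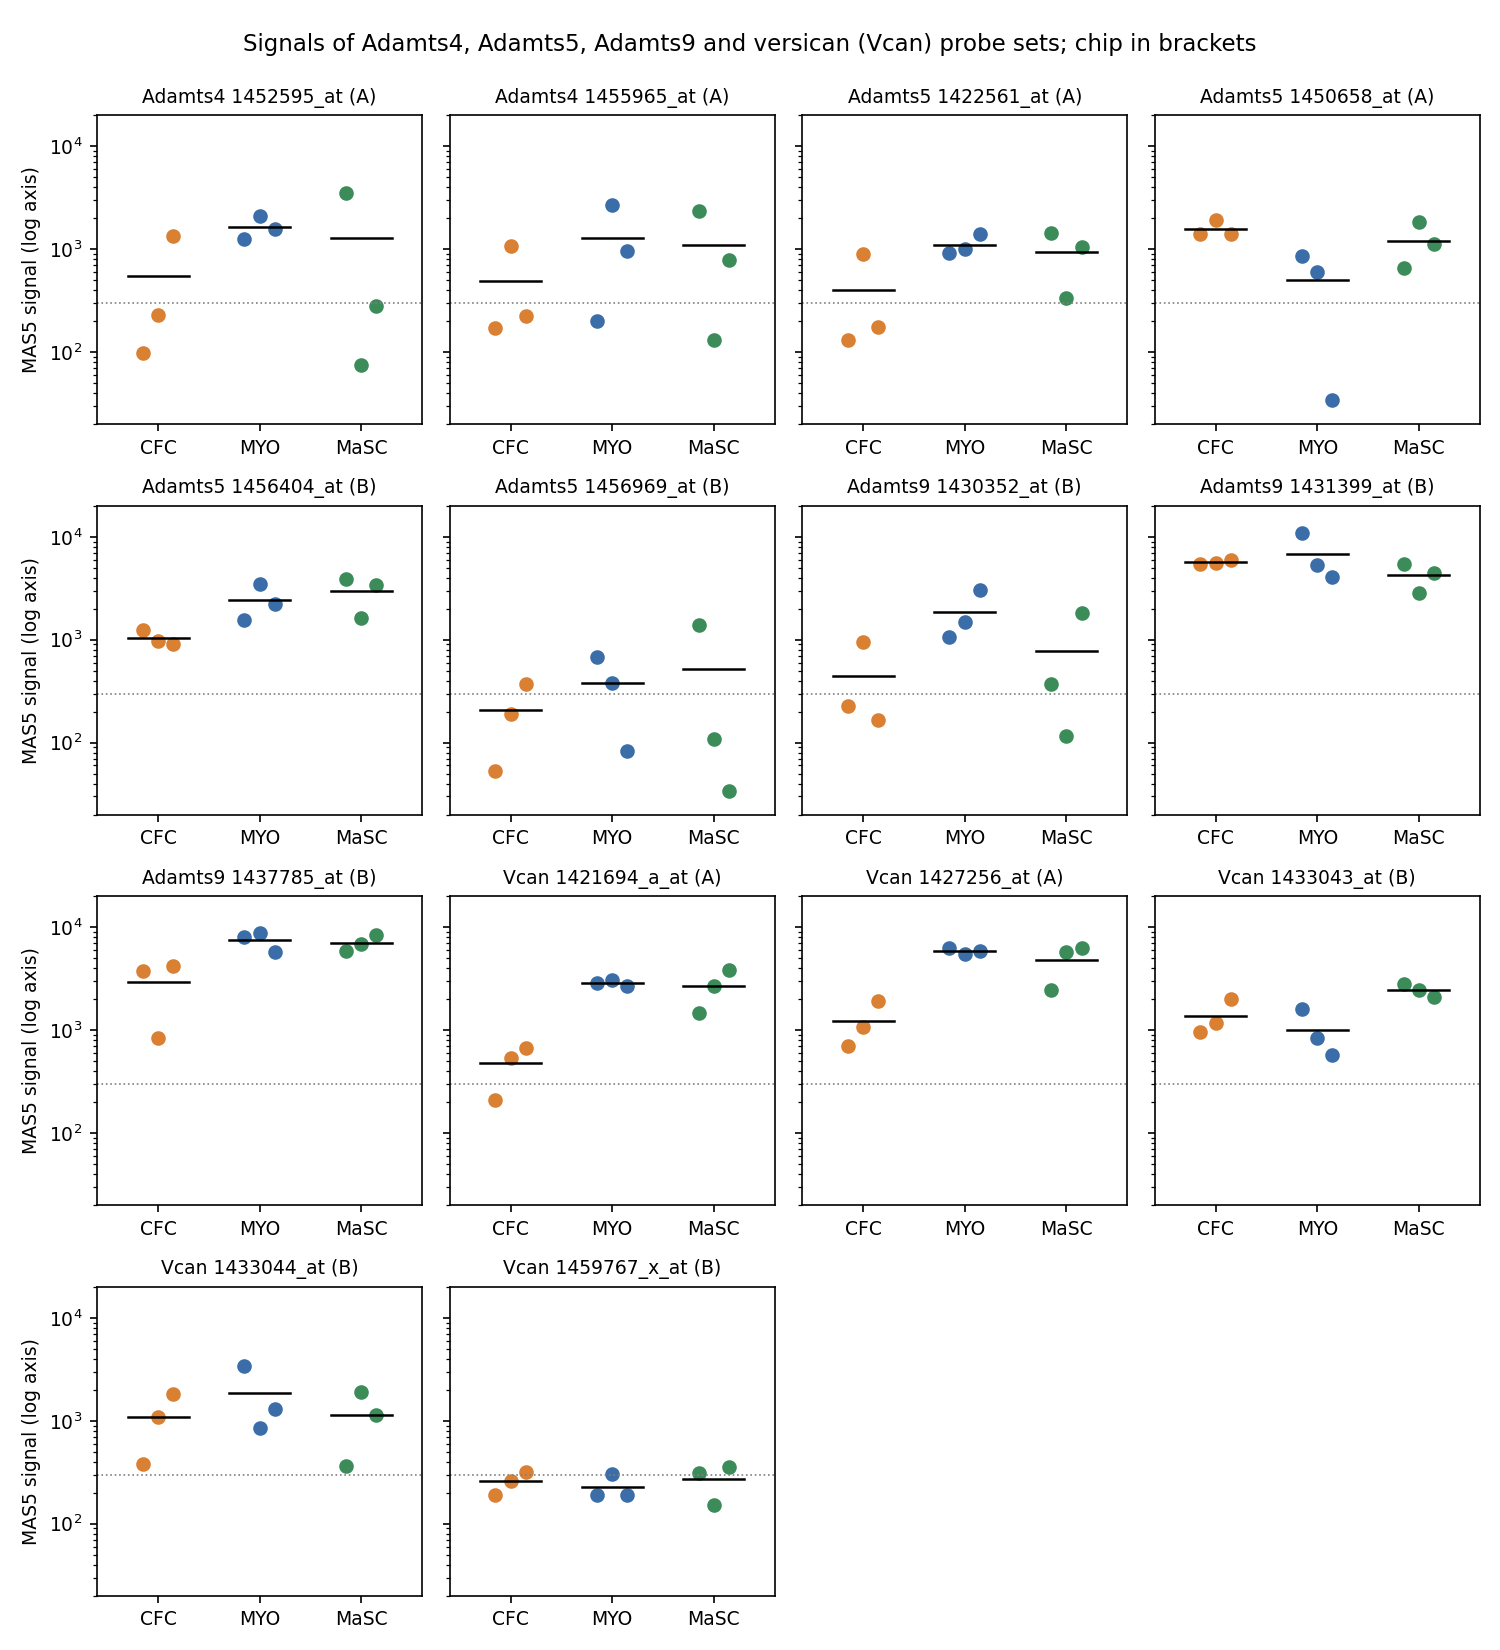
MAS5 signal on a log axis for all tested probe sets of Adamts4, Adamts5, Adamts9 and Vcan, 1 point per RNA sample, a bar at the population mean and a dotted line at 300, with the chip in brackets. The probe sets of Adamts5 differ in direction, and of the Vcan probe sets the 2 on chip A have all MYO and MaSC points above CFC.

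Among the remaining Adamts genes, Adamts18, a secreted protease, had the largest difference. On 1437574_at (chip B) its signals were 433, 538 and 1283 in CFC, 3984, 6002 and 1424 in MYO and 2291, 1229 and 1968 in MaSC. All MYO samples were above CFC, and MaSC2 fell just under CFC3. The log2 difference was 2.04 ± 0.70 in MYO (adjusted p = 0.737) and 1.21 ± 0.70 in MaSC (adjusted p = 0.952). Its other probe sets gave 1.30 and 0.22 in MYO. Adamts3, which trims procollagens and was picked out after its values were seen, was read by 2 probe sets at -0.76 and 0.23 in MYO and -1.22 and -1.04 in MaSC, none of them called. On 1441693_at all 3 MaSC samples (359, 1357 and 2162) were below the CFC samples (2450, 3217 and 2403).

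Across the Adamts family, 7 of the 27 tested probe sets had all MYO samples above all CFC samples and 2 had them all below, where all tested probe sets gave 5.77% and 6.22%. In MaSC these numbers were 5 and 2, where all tested probe sets gave 5.58% and 6.29%.

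No Adam probe set was called. The 41 tested probe sets had a median log2 difference from CFC of 0.05 in MYO and 0.18 in MaSC. In MYO, as in MaSC, 1 of the 41 lay wholly above CFC and 4 wholly below, where all tested probe sets gave 5.77% above and 6.22% below in MYO and 5.58% and 6.29% in MaSC. Adam10, the sheddase that releases Notch fragments and several growth factors, had signals of 3131, 12999 and 6048 in CFC, 2705, 2236 and 2247 in MYO and 1479, 3630 and 6169 in MaSC on 1428103_at. The MYO samples were all below CFC, and MaSC overlapped it. The log2 difference was -1.34 ± 0.50 in MYO (adjusted p = 0.316) and -0.93 ± 0.50 in MaSC (adjusted p = 0.656), and the other 3 Adam10 probe sets gave -1.38 to -0.62 in MYO.

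Adam17, the sheddase of amphiregulin and tumour necrosis factor that is required for duct growth in the mouse, was read by 3 probe sets with differences of 0.75, 0.76 and 1.41 in MYO and 1.42, 0.94 and 0.83 in MaSC. On 1421859_at, the brightest by mean log2 signal, signals were 3006, 112 and 146 in CFC, 1351, 1306 and 1963 in MYO and 552, 961 and 1611 in MaSC. CFC1 was the highest of all 9 samples and the other CFC samples the lowest, so the groups overlapped, and the lowest adjusted p of the 3 probe sets was 0.662. Adam9, a widely expressed sheddase, was even, with signals of 3200 to 4291 in CFC, 2012 to 3591 in MYO and 2680 to 3574 in MaSC. Its log2 differences were -0.35 ± 0.43 and -0.27 ± 0.43, with 95% intervals from -1.23 to 0.54 in MYO and from -1.15 to 0.61 in MaSC.

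Adam12, Adam15, Adam19 and Adam8 also overlapped CFC in MYO on their named probe sets. Adam15, which has an adhesive disintegrin domain, had signals of 3558, 5579 and 7582 in CFC, 6212, 3148 and 4628 in MYO and 4947, 3747 and 2920 in MaSC on 1438760_x_at, and its 4 probe sets ran from -1.31 to 0.05 in MYO and from -1.80 to 0.60 in MaSC. Adam12, known from muscle and from the stroma of tumours, had 1263, 1504 and 810 in CFC, 1251, 110 and 3114 in MYO and 1515, 1636 and 2507 in MaSC on 1421172_at. MaSC lay just above CFC, and MYO ran from the lowest to the highest sample, with differences of -0.31 ± 0.70 (adjusted p = 0.983) in MYO and 0.61 ± 0.70 (adjusted p = 0.909) in MaSC. The other Adam12 probe set gave 0.73 in MYO and 0.38 in MaSC. Adam19 ran from 141 to 1031 and Adam8, a leukocyte enzyme, from 110 to 1698, with no separation in any contrast. The 2 Adam19 probe sets differed in sign, from -1.12 to 0.55 in MYO and from -0.20 to 0.23 in MaSC.

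The 15 tested probe sets of Adam genes known mainly from testis or epididymis had medians of -0.13 in MYO and 0.24 in MaSC and none was called. Of these, Adam2 and Adam1a were picked out after their values were seen. Adam2 (1151, 464 and 887 in CFC; 326, 259 and 268 in MYO) and Adam1a (440, 1080 and 1164 in CFC; 204, 91 and 242 in MYO) had all MYO samples below CFC, at -1.12 (adjusted p = 0.820) and -1.61 (adjusted p = 0.549).

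Further members that separated from CFC in every sample without passing the test were picked out after their values were seen. Adam22, a neuronal adhesion protein with no active protease site, had signals of 1080, 2161 and 1958 in CFC, 1637, 419 and 1685 in MYO and 399, 227 and 524 in MaSC on 1451812_at. All MaSC samples were below CFC, at -1.81 (adjusted p = 0.370), while its chip B probe set stood at -0.06. Mmp8, the neutrophil collagenase, had 1246, 1141 and 2236 in CFC, 1348, 678 and 1387 in MYO and 172, 160 and 928 in MaSC. MaSC was again the low population, at -1.77 (adjusted p = 0.414).

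Adamts7, which cuts cartilage oligomeric matrix protein, had 35, 55 and 390 in CFC, 909, 1128 and 518 in MYO and 501, 375 and 472 in MaSC. MYO was above CFC in every sample, at 1.82 (adjusted p = 0.398), and MaSC2 lay below CFC3. Adamts20, known in mice for the migration of pigment cells in the skin, had 673, 188 and 64 in CFC, 252, 3042 and 1237 in MYO and 963, 2104 and 830 in MaSC on chip B. Here MaSC was the population wholly above CFC, at 1.79 (adjusted p = 0.945). Adam11, another non-catalytic member, was above CFC in MYO on chip A (219, 599 and 269 in CFC; 1810, 690 and 892 in MYO), at 1.29 (adjusted p = 0.734), and at 0.18 on its chip B probe set.

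Of the 4 inhibitors, Timp3 alone was called. TIMP3 binds to the matrix and is known to inhibit ADAM17 and aggrecan-degrading ADAMTS enzymes besides the Mmp enzymes. On 1449335_at its signals were 2005, 213 and 138 in CFC, 3096, 3667 and 3464 in MYO and 1638, 2403 and 3199 in MaSC. All MYO samples were above CFC, and MaSC1 lay below CFC1. The means were 785 ± 1057 in CFC, 3409 ± 289 in MYO and 2414 ± 781 in MaSC (SD, n = 3 each). The log2 difference was 2.54 ± 0.62 (SE, adjusted p = 0.0217) in MYO and 2.03 ± 0.62 (adjusted p = 0.146) in MaSC.

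On 1419089_at Timp3 had 2534, 889 and 307 in CFC, 2740, 8367 and 2345 in MYO and 4916, 4650 and 3689 in MaSC. Here all MaSC samples were above CFC and MYO3 lay below CFC1, with differences of 2.06 ± 0.56 (adjusted p = 0.0682) in MaSC and 1.86 ± 0.56 (adjusted p = 0.106) in MYO. The other 2 probe sets gave 0.69 and 0.79 in MYO and 0.76 and 0.99 in MaSC, so that all 4 were above 0 in both contrasts. CFC1 had the highest CFC signal on both probe sets described, and without it 1449335_at was also called in MaSC (2.94, adjusted p = 0.00919) and 1419089_at in both (2.72, adjusted p = 0.0107 in MaSC, 2.52, adjusted p = 0.0143 in MYO). With the replicate number as a block, 1419089_at was called in MaSC as well (2.06, adjusted p = 0.0421). The MYO call of 1449335_at was lost in 5 of the 9 fits without 1 sample, those without CFC2, CFC3, MYO1, MYO2 or MYO3, with differences of up to 2.61 and adjusted p of 0.0851 to 0.171. It was also lost within the first scan day (2.49, adjusted p = 0.169), with the scan day as a block (2.41, adjusted p = 0.0769), within fluidics station 2 (2.53, adjusted p = 0.0852) and without the variance trend (adjusted p = 0.159).

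Timp1, a soluble inhibitor, had signals of 1456, 1616 and 1075 in CFC, 781, 2045 and 1689 in MYO and 473, 1454 and 1715 in MaSC. The populations overlapped, with differences of 0.04 ± 0.61 in MYO and -0.30 ± 0.61 in MaSC and 95% intervals from -1.21 to 1.29 and from -1.55 to 0.95. Timp2, which takes part in MMP2 activation, was read by 6 probe sets. On the brightest, 1433662_s_at, signals were 7613, 5188 and 3999 in CFC, 7967, 8752 and 3786 in MYO and 6129, 3433 and 5321 in MaSC. These overlapped too, with differences of 0.24 ± 0.42 (adjusted p = 0.975) in MYO and -0.16 ± 0.42 (adjusted p = 0.968) in MaSC, and the 95% intervals ran from -0.62 to 1.10 in MYO and from -1.02 to 0.70 in MaSC. Over its 6 probe sets the range was -0.38 to 0.73 in MYO and -1.06 to 0.78 in MaSC. Timp4 ran from 233 to 1521 on 1450974_at without separation. Its 2 probe sets differed in sign, from -0.48 to 0.86 in MYO and from -0.81 to 0.52 in MaSC.

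**Figure D5:**
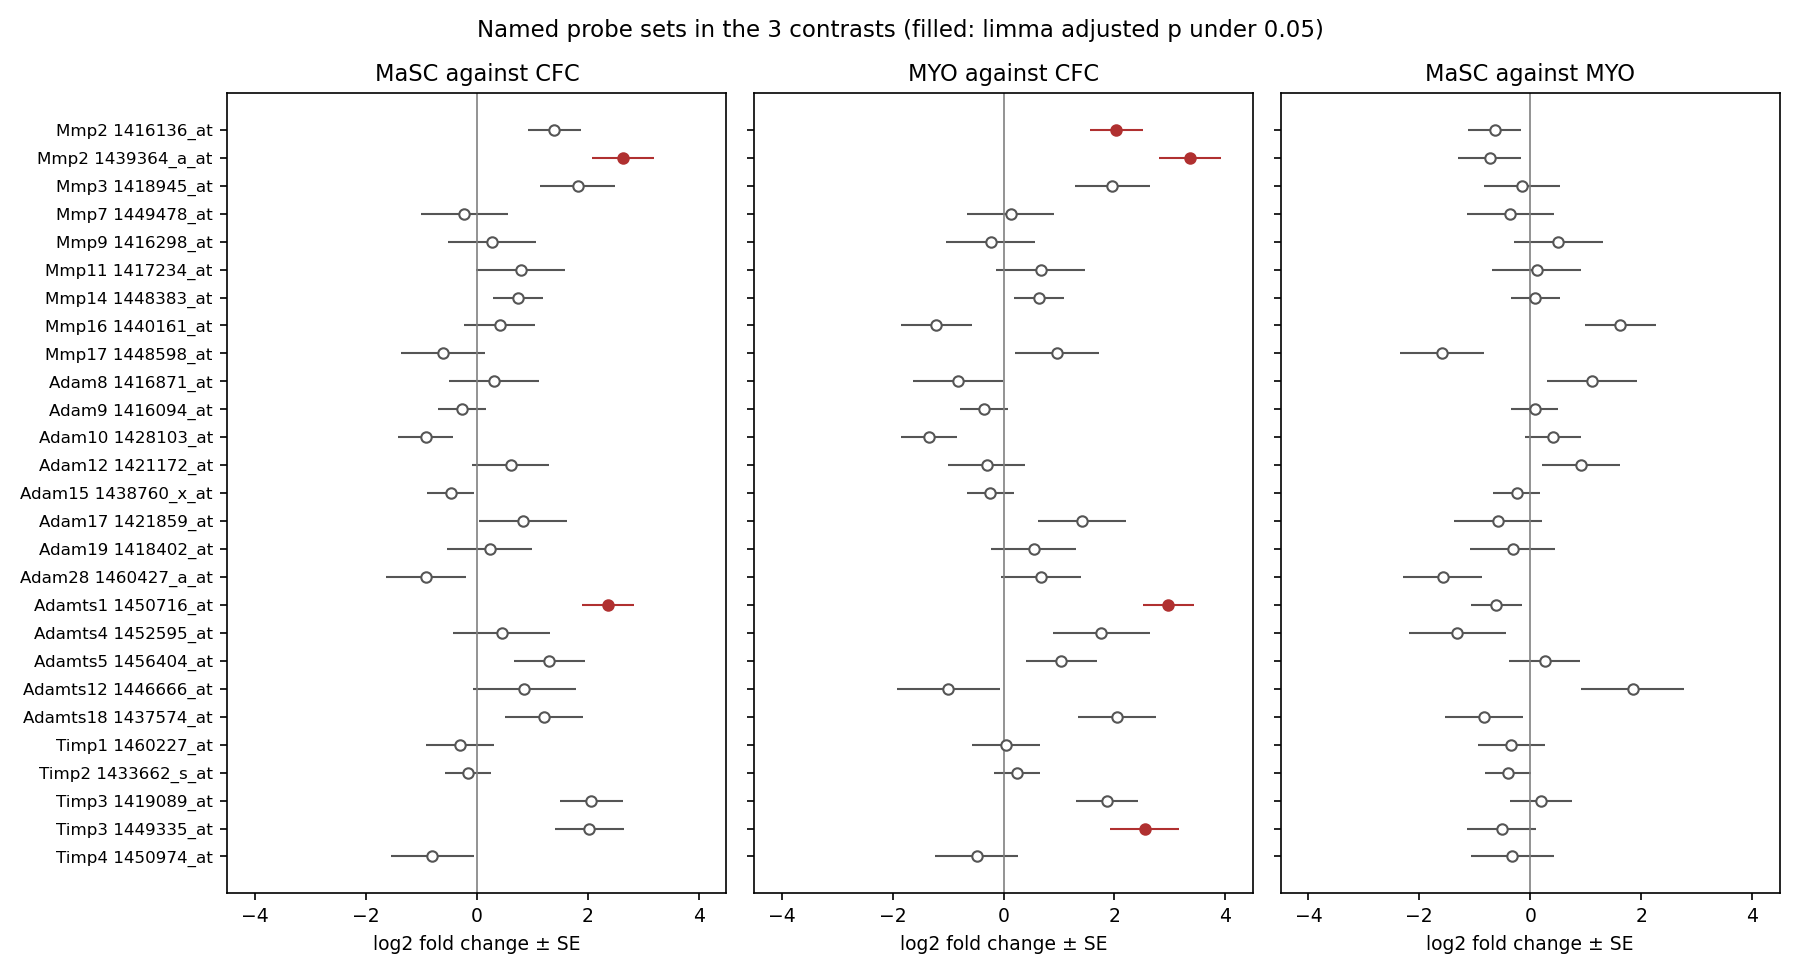
Log2 fold change ± SE on the log2(signal + 150) scale of the 27 named probe sets in the 3 contrasts, with filled points for adjusted p under 0.05. Adamts1 and Mmp2 1439364_a_at are filled in both contrasts against CFC, Mmp2 1416136_at and Timp3 1449335_at in MYO against CFC, and no point is filled in MaSC against MYO.

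MaSC and MYO gave no call against each other in limma, neither among the 105 tested members nor among all 41553 tested probe sets. At an unadjusted p under 0.05, 1 member was higher in MaSC and 3 were lower, against 1.93% and 2.06% of all tested probe sets. The MaSC samples lay wholly above MYO for 5 members and wholly below for 3, where all tested probe sets gave 4.28% and 4.37%. The smallest adjusted p over the members was 0.999 and over all tested probe sets 0.394. The largest differences were in Adamts12 1446666_at (1.85 ± 0.93), Mmp16 1440161_at (1.62 ± 0.64), Mmp17 1448598_at (-1.58 ± 0.76) and Adam28 1460427_a_at (-1.58 ± 0.72), each with an adjusted p of at least 0.999. The other Adamts12 probe set went the opposite way, at -1.14, and the 4 of Mmp16 ran from 0.22 to 1.62.

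Mmp16, a membrane-type enzyme, had 1956, 592 and 680 in MYO and 2357, 3424 and 4085 in MaSC, with CFC between 2006 and 3249. Mmp17, a membrane-type enzyme held by a lipid anchor and known from smooth muscle, had 1036, 1164 and 1316 in MYO and 208, 793 and 101 in MaSC, with CFC between 288 and 768. In these genes the MaSC and MYO samples did not overlap, and the CFC samples overlapped MaSC. Adam28, a lymphocyte enzyme, was below 300 on all 3 MaSC arrays (149, 100 and 55) and at 132, 721 and 1521 in MYO. Adamts12, a cartilage enzyme, had signals in CFC of 2315, 2601 and 92, in MYO of 137, 246 and 1666 and in MaSC of 2277, 2140 and 1592. For the called members, MaSC minus MYO was -0.61 ± 0.46 for Adamts1, -0.73 ± 0.56 and -0.64 ± 0.48 for Mmp2 and -0.52 ± 0.62 for Timp3 1449335_at. The 95% interval was -1.55 to 0.33 for Adamts1 and -1.88 to 0.41 for Mmp2 1439364_a_at.

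Genes that work with these proteases were taken from lists of inhibitors, activators, trafficking partners, shed ligands and substrates, with 1 probe set per gene. Of 50 listed genes, 47 were on the chips and 44 were tested, and Vcan alone was called. The median over the 44 was 0.33 in MYO and 0.22 in MaSC, against -0.01 and -0.02 over all tested probe sets. Vcan encodes versican, a large matrix proteoglycan and a substrate of ADAMTS1. On 1427256_at it had 699, 1076 and 1918 in CFC, 6323, 5533 and 5890 in MYO and 2474, 5710 and 6278 in MaSC. All MYO and MaSC samples were above CFC, with differences of 2.23 ± 0.47 (SE, adjusted p = 0.00474) in MYO and 1.84 ± 0.47 (adjusted p = 0.0407) in MaSC.

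The MYO call of Vcan held in all 9 fits without 1 sample (adjusted p up to 0.0419), whereas the MaSC call held in 2 of these 9 and in 4 of 14 other alternative settings. The MYO call held in 13 of those 14 and was lost without the variance trend (adjusted p = 0.113). In MaSC the adjusted p without CFC1, CFC2, MaSC2 or MaSC3 was 0.144 to 0.240, and without any 1 MYO sample 0.0590 to 0.0629. Within the first scan day the differences were 2.28 (adjusted p = 0.0332) in MYO and 1.60 (adjusted p = 0.322) in MaSC, and within fluidics station 2 they were 2.23 (adjusted p = 0.00843) and 2.32 (adjusted p = 0.0950). The other chip A probe set tested, 1421694_a_at, was called in both contrasts (2.35, adjusted p = 0.0170 in MYO; 2.17, adjusted p = 0.0482 in MaSC). The 3 tested chip B probe sets of Vcan ran from -0.45 to 0.68 in MYO and from 0.03 to 0.82 in MaSC, with no call.

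The partner genes named besides Vcan were picked out after their values were seen. The other 5 substrates gave no call, among them nidogen 1, Nid1, at 2.27 in MYO (adjusted p = 0.0894) and 1.39 in MaSC (adjusted p = 0.577). The 15 inhibitors, activators and clearance genes had 0 calls, with Reck, a membrane-anchored Mmp inhibitor, at 1.49 and 0.96 and the clearance receptor Lrp1 at 1.15 and 1.21 in MYO and MaSC. Of the 8 genes that escort ADAM10 or ADAM17 to the membrane none was called. The lowest in MYO was the ADAM10 partner Tspan14, at -2.27 in MYO (adjusted p = 0.0678) and -1.37 in MaSC, where Tspan10 was the lowest (-1.57). The 6 EGF family ligands shed by these enzymes had medians of -0.33 and -0.29 and no call. Adamtsl3, an Adamts-like protein with no protease domain, stood at 2.77 in MYO on chip B (adjusted p = 0.306).

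Many members were dim. Of the 116, 31 reached 300 on all 9 arrays, 74 on 3 to 8, 8 on 1 or 2, and 3 on none. The 11 untested probe sets left Adam18, Adam3, Adam6a, Mmp12 and Mmp1b with no tested probe set, and the other 6 belong to Adam23, Adam28, Adamts6, Mmp19, Mmp23 and Mmp9, which were tested on another. Mmp15 had no member probe set. The SE of a member's log2 difference was 0.42 to 1.01, and its within-population SD had a median of 0.89, against 0.87 over all tested probe sets. Where a gene had several tested probe sets, the 76 pairs of them had the same sign in 65.8% of cases in MYO against CFC and 56.6% in MaSC against CFC, against 54.1% and 52.9% of 26079 pairs over all genes.

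Several member genes are neighbours in the genome. Among protein-coding genes of GRCm38.p6, Adamts1 and Adamts5 lie side by side on chromosome 16, and of their 5 tested probe sets the Adamts1 probe set alone was called. Chromosome 9 holds a run of 7 Mmp genes (Mmp13, Mmp12, Mmp1b, Mmp3, Mmp1a, Mmp10 and Mmp8). The 5 tested genes of this run ranged from -0.39 to 1.96 in MYO and from -1.77 to 1.82 in MaSC, with no call. The runs on chromosome 8, with Adam18, Adam3, Adam5, Adam32 and Adam9 in one and Adam24 and Adam25 in the other, gave no call either.

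The stretch before the start of Mmp3 is shown because this gene had the largest uncalled difference of the Mmp family against CFC in both contrasts and holds the AP-1 motif TGANTCA, searched on both strands and marked in capitals with TATAAA. It lies on chr9:7445572-7445821, plus strand, in RefSeq's GRCm38.p6.
Mmp3: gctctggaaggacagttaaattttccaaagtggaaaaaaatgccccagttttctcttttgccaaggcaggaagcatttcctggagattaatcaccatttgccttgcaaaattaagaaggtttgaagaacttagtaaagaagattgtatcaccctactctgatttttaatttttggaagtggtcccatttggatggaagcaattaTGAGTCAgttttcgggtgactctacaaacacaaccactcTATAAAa
The motif, written TGAGTCA here, starts 46 bases before the start site and TATAAA starts 7 bases before it. Both distances are counted from RefSeq's start, and where transcription begins in these cells was not tested. Of the 65 member genes, 37 had promoters in the RefSeq table, 42 in all, and 10 of these 42 held TGANTCA (23.8%), against 2217 of 32851 promoters (6.75%). The 10 were those of Mmp1a, Mmp1b, Mmp3, Mmp7, Mmp10, Mmp12, Mmp13, Mmp20, Adam19 and Adam25, none of them called. Of these, Mmp12 and Mmp1b had no tested probe set and so could not be called. TATAAA was in 23.8% of the member promoters and a GC box in 35.7%, and no member promoter held a CArG box. The Adamts1 and Timp3 stretches hold no TGANTCA. Mmp2, the other called gene, had no promoter in the RefSeq table and was not searched. A match of letters is a description of these windows and was not tied to the array values by any test.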

How the data were processed

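RNA from 3 samples of each population was read on 18 arrays, 9 per chip. The authors deposited 1 intensity per probe set on a linear scale; MAS5 is the tool named, per the submitters' processing notes, and its version is not given in the sources used here. The deposited handling records gave the scan day and the fluidics station and no measurement. No further scaling was made. log2(signal + 150) was fitted per chip over all 9 arrays with limma 3.58.1 in R 4.3.3 (eBayes with trend, 6 residual degrees of freedom before moderation). Control probe sets were left out, and 100 probe sets on both chips were tested on chip A only.

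Values in every sample are given for members called in any test. They are given, for some as a range, for a fixed choice of Timp, Mmp, Adam and Adamts genes (probe set with the highest mean log2 signal). The 4 largest differences of each contrast are also given, with CFC as a range for Mmp16 and Mmp17 and left out for Adam28. Members, lists and tests were chosen with earlier results of these data known. The labels call the CFC samples biological triplicates and say nothing of the others, so p-values may measure technical spread only. Fits were run on simulated data with changes planted only in the brighter probe sets, so recovery of changes in dim members was not tested. Same-numbered samples did not vary together (deviations correlated at -0.113 to 0.118 on chip A and -0.0678 to 0.0764 on chip B), so numbers were not used as pairs. Alternatives were other pseudocounts, filters, normalization, variance models, blocks, adjustment over both chips and samples left out; the fits for Vcan and those by fluidics station were added after seeing the data. Motifs were searched in 250 bases upstream of RefSeq starts.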

Additional observations from a re-analysis of the deposited data

How the results depend on the processing

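The members called in the F test fell from 4 to 2 with a pseudocount of 1% of the chip mean, no filter, quantile normalization, the scan day as a block, adjustment over both chips or the first scan day alone. Without a variance trend they were 0, the members called higher in MaSC went from 2 to 0 and those in MYO from 4 to 1, while the calls over all probe sets went from 182 to 33 and from 259 to 87. Those in MYO were 2 with the scan day as a block and 2 within the first scan day, where fewer arrays remain. On leaving out 1 RNA sample the members called higher were 2 to 3 in MaSC, 2 to 4 in MYO (2 without CFC2, MYO1 or MYO2) and 2 to 4 in the F test (2 without CFC2, CFC3, MYO1 or MYO2). On fluidics station 2 alone, an alternative chosen after seeing the data that leaves 1 MaSC array on each chip, they were 0 in MaSC and 3 in MYO, and with the station as a block, without the 1 array that has none recorded, 2 and 4. With the replicate block, the counts were 3 in MaSC and 4 in MYO, and the block ended no call. No named fold change that was called changed sign in any fit. Apart from the construction just named, the cause of these changes was not tested. With 3 samples a population, the SE of a member's difference had a median of 0.745, which limits what could be called.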
